A study of Homo sapiens with 24 samples.

Results

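The complement genes C3, CFB, C1R, C1S, CFI, SERPING1, CD46, CD55 and CD59 were followed in the tongue squamous carcinoma cell lines Cal33 and SAS. All 9 members were found by gene name among the 57820 genes counted in each of the 24 libraries, and all 9 passed the filter on low counts in both lines. Complement is a cascade of plasma proteins that marks surfaces for uptake and can pierce membranes. C1R and C1S, the proteases of the C1 complex, start the classical pathway, C3 is the central component that all pathways cleave, and CFB gives the alternative pathway its C3-cleaving protease. The cascade is held back by the plasma protease factor I (CFI), by the C1 inhibitor (SERPING1), which blocks C1R and C1S, and by the membrane regulators CD46, CD55 and CD59. Most of these proteins come from the liver, but epithelial and tumour cells also make them, and interferon and inflammatory cytokines are known to raise several of them.

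Total RNA was sequenced from 4 groups per line with 3 libraries each: sham, GSK-J1 at 4.5 µM, a single dose of 4 Gy x-rays, and GSK-J1 combined with 4 Gy, all taken 24 h after treatment began. GSK-J1 inhibits the histone H3K27 demethylases UTX and JMJD3, and the study asked how it acts on irradiated cells. Both lines are labelled wild type, and the dose of GSK-J1 was chosen to inhibit growth only slightly. Nothing states whether the 3 libraries of a group came from separate cultures, so p-values measure the spread between these libraries only. In bulk RNA, fewer cells that express a gene and less RNA of it per cell cannot be told apart.

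Between 54200036 and 96848227 reads per library were counted on the strand of a gene, with a median of 76418470.5. All 10 squamous epithelial markers examined had a mean of at least 1 CPM (counts per 1000000 of the TMM-scaled library size) in both lines. Of 13 markers of immune, endothelial, stromal and liver cells, 5 did so in each line, namely CD14, CSF1R, VWF, CDH5 and COL1A1, and the 13 together summed to between 57.7 and 90.4 CPM in Cal33 and between 21.8 and 126 CPM in SAS. Library 1 of SAS GSK-J1 and library 1 of SAS GSK-J1 with 4 Gy held transcripts of Cal33: 15 genes that mark Cal33 stood there at 1.57% and 0.765% of their Cal33 level, and in no other SAS library above 0.00527%. With the mean level of the matching Cal33 group, Cal33 transcripts were estimated to make up 18.6% of CFB and 6.12% of C1R under GSK-J1 with 4 Gy. The estimate was 9.93% of SERPING1 under GSK-J1. These are not upper limits, since single Cal33 libraries differed: CFB spanned 9.35 to 60.9 CPM in Cal33 GSK-J1 with 4 Gy. The source libraries are not known. The SAS results are therefore also given without both libraries.

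In the build of the files (hs37d5, a GRCh37 assembly), C3 lies on chromosome 19 at 6677715-6730573 on the minus strand and CFB on chromosome 6 at 31895475-31919861 on the plus strand. C1R (12:7187513-7245203, minus strand) and C1S (12:7096351-7178336, plus strand) are neighbours, as are CD55 (1:207494853-207534311) and CD46 (1:207925402-207968858), both on the plus strand. CFI lies at 4:110661852-110723335, SERPING1 at 11:57364860-57382326 and CD59 at 11:33719807-33757991. Reads were counted over exons. Some exon counts are uncertain: CFB shares its strand and position with C2 and with a second row named CFB that held 0 counts, and C1R overlaps C1RL on its strand. The spans of C3 (with GPR108), C1S (EMG1 and RP3-461F17.1), CD46 (RP11-454L1.2) and CD59 (C11orf91) also overlap another gene on their strand. Reads in shared stretches may have gone to either gene or to none.

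In sham-treated cells the membrane regulators CD59 and CD46 stood at the top of the list, and CD55 lay further down. Levels between genes are compared here in CPM per kilobase of exon. In Cal33, CD59, which blocks the membrane attack complex, was highest at 41.0 ± 1.96 (SD, n = 3), followed by CD46, a cofactor for cleavage of C3b, at 28.3 ± 6.85. C1R (6.85 ± 1.15), C1S (5.80 ± 1.084), C3 (4.86 ± 1.80), CD55 (3.22 ± 1.34) and CFI (2.10 ± 0.421) followed, and each of these overlapped its neighbour in the order. CFB at 0.702 ± 0.400 and SERPING1 at 0.215 ± 0.169 were lowest. In SAS the order was CD46 (33.4 ± 5.16), CD59 (32.3 ± 2.84), C3 (18.01 ± 10.27), CD55 (16.1 ± 3.55), CFI (3.45 ± 1.44), C1R (3.32 ± 1.36), C1S (3.02 ± 0.738), CFB (0.243 ± 0.154) and SERPING1 (0.00398 ± 0.000803). Within it, CD46 and CD59 overlapped, as did C3 and CD55, and likewise CFI, C1R and C1S.

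**Figure D1:**
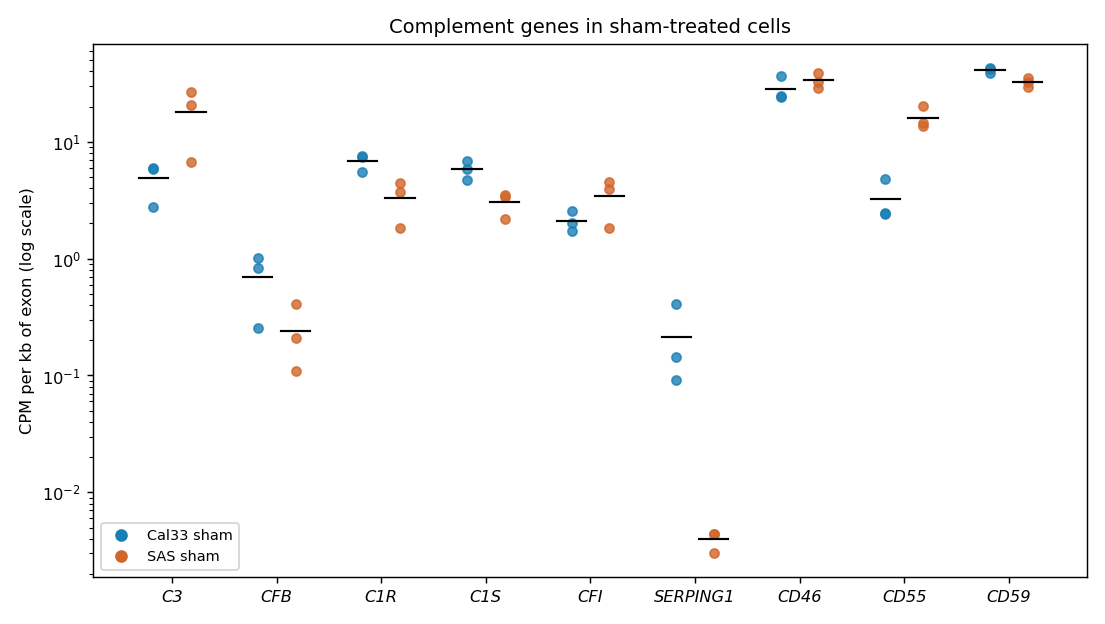
Levels of the 9 genes in sham-treated cells, in CPM per kilobase of exon on a log axis. Each point is 1 library and each bar the mean of 3 libraries. CD59 and CD46 are at the top in both lines, C3 and CD55 are higher in SAS, and SERPING1 is lowest in both.

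The lines differed at baseline in 6 of the 9 genes, by edgeR's quasi-likelihood test on all 24 libraries with Benjamini-Hochberg adjustment over all genes tested. At the same threshold (adjusted p under 0.05) 54.5% of all genes differed between the lines (27.2% in each direction), so the members' share lies near that of any gene. CD55, the regulator that dissociates C3-cleaving enzymes, was 4.98-fold lower in Cal33 (log2 -2.32 ± 0.31 SE, adjusted p = 1.9e-06), and C3 was 3.70-fold lower (log2 -1.89 ± 0.52, adjusted p = 0.00386). C1R was higher in Cal33 by 1.05 ± 0.32 on the log2 scale (adjusted p = 0.00854), C1S by 0.94 ± 0.23 (adjusted p = 0.00159) and CD59 by 0.34 ± 0.09 (adjusted p = 0.00411). C1R was no longer called without SAS sham library 3 (adjusted p = 0.0584). SERPING1 was counted 111, 23 and 51 times in the Cal33 sham libraries and 1 time in each SAS sham library (adjusted p = 2.29e-05). For the 6 called genes the sham groups of the lines did not overlap, which held for 57.6% of all genes.

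Promoter windows were searched for motifs of factors known to act on complement genes. They are the 250 bases before a RefSeq transcription start on GRCh38.p14, a different build from that of the counts. Windows were given for CFB, C1R, CFI, CD46, CD55 and CD59. Each was searched on both strands for a STAT motif (TTCNNNGAA), an interferon response element (TTTC and TTTC separated by any 2 bases), AP-1 (TGANTCA), C/EBP (TTNNGNAA), TATAAA, and NF-kB and p53 half-site motifs. CFB is shown as the only member window with an interferon response element, C1R and CD59 for their STAT motifs, and CD55 as a member that rose in Cal33 and held none of the motifs. The STAT motif was absent at start 1 of C1R and at starts 3 and 4 of CD59. AP-1 matched only at start 4 of CD59, at positions -117 and -23 from the start. The p53 half-site matched in the CFI window (-211) and at start 3 of CD59 (-189). C/EBP matched at both starts of C1R, in the CFI window and at start 3 of CD59. Starts 1 and 2 of CD59 have overlapping windows that share the same match. The windows of CD46 also held none of the motifs, and no member window held the NF-kB motif. One C/EBP match in the C1R window is left in lower case. Capitals mark matches to the STAT motif, the interferon response element and TATAAA.
CFB (chr6:31945845-31946094, plus strand): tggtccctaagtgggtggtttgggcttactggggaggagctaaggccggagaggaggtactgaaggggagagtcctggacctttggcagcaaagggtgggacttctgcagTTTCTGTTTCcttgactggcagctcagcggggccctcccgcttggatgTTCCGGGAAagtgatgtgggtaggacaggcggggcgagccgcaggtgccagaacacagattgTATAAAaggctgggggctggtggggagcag
C1R, second start (chr12:7091894-7092143, minus strand): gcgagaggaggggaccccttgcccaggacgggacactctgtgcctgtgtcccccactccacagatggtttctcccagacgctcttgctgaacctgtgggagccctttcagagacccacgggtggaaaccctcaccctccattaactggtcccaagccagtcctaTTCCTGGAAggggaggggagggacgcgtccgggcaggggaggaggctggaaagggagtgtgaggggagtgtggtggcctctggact
CD59, first start (chr11:33736480-33736729, minus strand): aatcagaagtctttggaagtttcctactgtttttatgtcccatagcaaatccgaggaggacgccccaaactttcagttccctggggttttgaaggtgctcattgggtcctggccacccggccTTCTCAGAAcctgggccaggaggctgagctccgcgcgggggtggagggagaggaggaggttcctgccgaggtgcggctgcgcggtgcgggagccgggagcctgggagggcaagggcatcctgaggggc
CD55 (chr1:207321428-207321677, plus strand): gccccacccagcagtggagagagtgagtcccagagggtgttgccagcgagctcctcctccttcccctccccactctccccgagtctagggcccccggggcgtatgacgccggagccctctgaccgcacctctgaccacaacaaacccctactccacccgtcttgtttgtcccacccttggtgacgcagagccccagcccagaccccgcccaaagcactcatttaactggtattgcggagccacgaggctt
In the CFB window the interferon response element began at position -140, counted back from the start, the STAT motif at -92 and TATAAA at -30, and none overlapped another. The STAT motif lay at -86 in the C1R window and at -128 in the CD59 window. Of 35093 RefSeq windows of this length, 6.57% held the STAT motif, 3.02% the interferon response element and 10.7% TATAAA. AP-1 was held by 6.57%, C/EBP by 33.2% and the p53 half-site by 5.58%. These shares are per window, whereas C1R and CD59 had several windows each. These matches are letters in a window and were not tested for binding.

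After 4 Gy, C3, C1R, C1S and CD55 rose in Cal33, and no member fell. These were 4 of the 9 genes, against 6.27% of the 24351 genes tested in Cal33 (3.47% higher and 2.81% lower). The median log2 fold change of the 9 members was 0.81 and that of all genes tested 0.01. For 5 members the 4 Gy and sham libraries did not overlap, which held for 25.9% of all genes.

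C3 stood at 50.1, 23.2 and 48.2 CPM in the Cal33 sham libraries and at 307, 309 and 92.0 CPM after 4 Gy. Every irradiated library lay above every sham library, with library 3 far below the other two after irradiation. C3 rose 5.89-fold (log2 2.56 ± 0.47 SE, adjusted p = 0.0098), and it stayed called when any one library of either group was left out (adjusted p between 0.00759 and 0.0404).

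C1R was measured at 35.7, 25.9 and 34.7 CPM in sham and at 69.9, 64.6 and 40.6 CPM after 4 Gy, and C1S at 43.8, 29.9 and 37.4 CPM in sham and 69.0, 75.3 and 48.6 CPM after 4 Gy. Neither gene overlapped between the groups, and library 3 was again the lowest of the irradiated libraries. Both rose by less than C3. C1R rose 1.83-fold (log2 0.87 ± 0.20, adjusted p = 0.0257) and C1S 1.75-fold (log2 0.81 ± 0.18, adjusted p = 0.0251). Both lay close to the threshold: C1R stayed called in 1 and C1S in 2 of the 6 fits that left out a library, with adjusted p up to 0.0874 and 0.0736.

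CFB had 5.52, 1.68 and 6.75 CPM in sham and 52.1, 13.1 and 6.94 CPM after 4 Gy. Its groups did not overlap, but the lowest irradiated library was just above the highest sham library, and the irradiated libraries spread widely. Its log2 difference was 2.38 ± 0.88 (95% interval 0.35 to 4.40), with an adjusted p of 0.129. Without a filter on low counts CFB was also called, for 5 members in all.

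Of the soluble inhibitors, CFI stood at 9.87, 7.86 and 6.64 CPM in sham and 2.97, 10.5 and 5.10 CPM after 4 Gy, and SERPING1 at 1.47, 0.332 and 0.521 CPM in sham and 2.16, 0.996 and 0.518 CPM after 4 Gy. Both overlapped between the groups. Their log2 differences had 95% intervals of -1.36 to 0.61 for CFI and -0.66 to 2.01 for SERPING1.

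Among the membrane regulators CD55 had 11.1, 10.8 and 21.3 CPM in sham and 53.03, 26.1 and 31.7 CPM after 4 Gy. All irradiated libraries were above all sham libraries, and CD55 rose 2.58-fold (log2 1.37 ± 0.36, adjusted p = 0.0415). It stayed called in 2 of the 6 fits without 1 library, where the adjusted p reached 0.16. CD46 was at 212, 212 and 316 CPM in sham and at 216, 214 and 161 CPM after 4 Gy, and CD59 at 192, 205 and 210 CPM in sham and 233, 195 and 212 CPM after 4 Gy. These groups overlapped for both genes, with 95% intervals of the log2 difference from -0.78 to 0.15 for CD46 and from -0.15 to 0.32 for CD59.

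**Figure D2:**
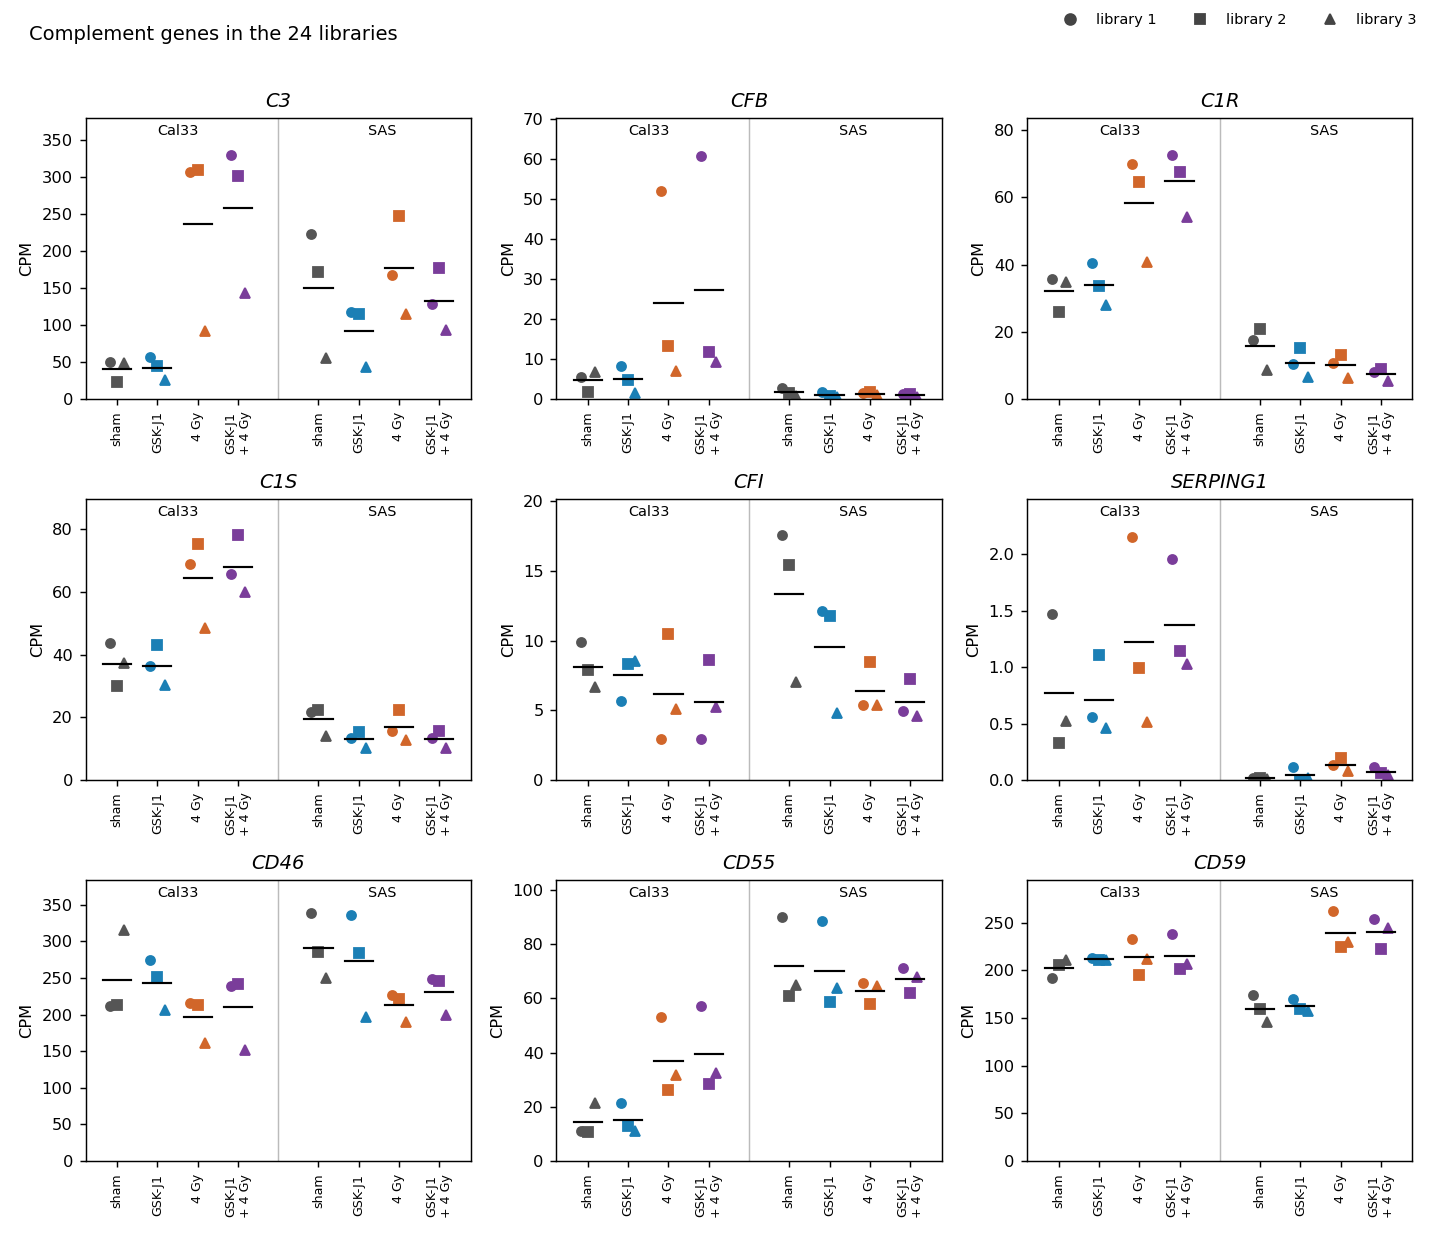
CPM of each gene in every library, in Cal33 at the left and SAS at the right of each panel. Points are libraries (circle, square and triangle for numbers 1, 2 and 3) and bars are group means of 3 libraries. In Cal33 the irradiated libraries of C3, CFB, C1R, C1S and CD55 lie above all unirradiated ones of their comparison. In SAS those of CD59 do so in both comparisons, and those of SERPING1, which is near absent there, only for 4 Gy against sham.

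The same 4 genes rose in Cal33 when irradiation was given with GSK-J1 and compared with GSK-J1 alone, a comparison with its own 6 libraries. They were 4 of 9 members, against 5.11% of all genes (3.04% higher and 2.07% lower). C3 had 56.3, 44.0 and 25.6 CPM under GSK-J1 and 330, 301 and 143 CPM with 4 Gy added, without overlap. It rose 6.25-fold (log2 2.64 ± 0.47, adjusted p = 0.00947). C1R rose 1.94-fold (log2 0.95 ± 0.20, adjusted p = 0.019), from 40.5, 33.6 and 27.8 CPM to 72.7, 67.5 and 54.2 CPM. C1S rose 1.89-fold (log2 0.92 ± 0.18 SE, adjusted p = 0.0165), from 36.2, 43.0 and 30.3 CPM to 65.6, 78.0 and 60.0 CPM. CD55 rose 2.67-fold (log2 1.42 ± 0.36, adjusted p = 0.0403), from 21.3, 12.8 and 10.98 CPM to 57.1, 28.6 and 32.6 CPM. None of these genes overlapped between these groups. Without GSK-J1 library 2 only C1S stayed called, and without GSK-J1 library 3 only C3.

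CFB had 8.25, 4.75 and 1.57 CPM under GSK-J1 and 60.9, 11.8 and 9.35 CPM with 4 Gy added, so its groups did not overlap either (log2 2.52 ± 0.88, adjusted p = 0.118). In these 2 groups libraries of the same number deviated together, so a replicate block (a term for the library number) was also fitted. With this replicate block over the 12 libraries CFB was called as well (log2 2.21 ± 0.58, adjusted p = 0.0357), for 5 members against 8.67% of all genes (5.04% higher and 3.63% lower). The 12 libraries include Cal33 sham, whose numbers did not pair with those of the other groups. With the replicate block on the 6 libraries alone 7 members were called against 18.4% of all genes (10% higher and 8.37% lower), adding SERPING1 (log2 1.02 ± 0.27, higher, adjusted p = 0.00661) and CFI (log2 -0.50 ± 0.17, lower, adjusted p = 0.0407). The fit of 6 libraries has few residual degrees of freedom.

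GSK-J1 left no called change in any member in Cal33, alone or added to 4 Gy. By edgeR no gene at all was called for GSK-J1 against sham (0%), for GSK-J1 with 4 Gy against 4 Gy (0%) or for the interaction (0%), while 215, 244 and 209 genes had an unadjusted p under 0.05, and DESeq2 called 0 in each. The smallest p among the members belonged to CD59 for GSK-J1 alone (log2 0.07 ± 0.10, 95% interval -0.17 to 0.30), to C1R for GSK-J1 added to 4 Gy (log2 0.16 ± 0.20, -0.30 to 0.62) and to CD46 for the interaction (log2 0.13 ± 0.28, -0.53 to 0.78), each at an adjusted p of 1. Only CD59 did not overlap between GSK-J1 and sham, against 3.54% of all genes, and no member did so between GSK-J1 with 4 Gy and 4 Gy, against 4.38%. For C3 the interval was -0.98 to 1.08 for GSK-J1 alone and -0.89 to 1.16 for GSK-J1 added to 4 Gy, without a block. The libraries of 4 Gy with and without GSK-J1 pair by number, and with the replicate block on these 6 the log2 difference of C3 was 0.23 ± 0.07 (adjusted p = 0.0962). In that fit 127 genes (0.515%; 0.227% higher and 0.288% lower) and 0 members were called.

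**Figure D3:**
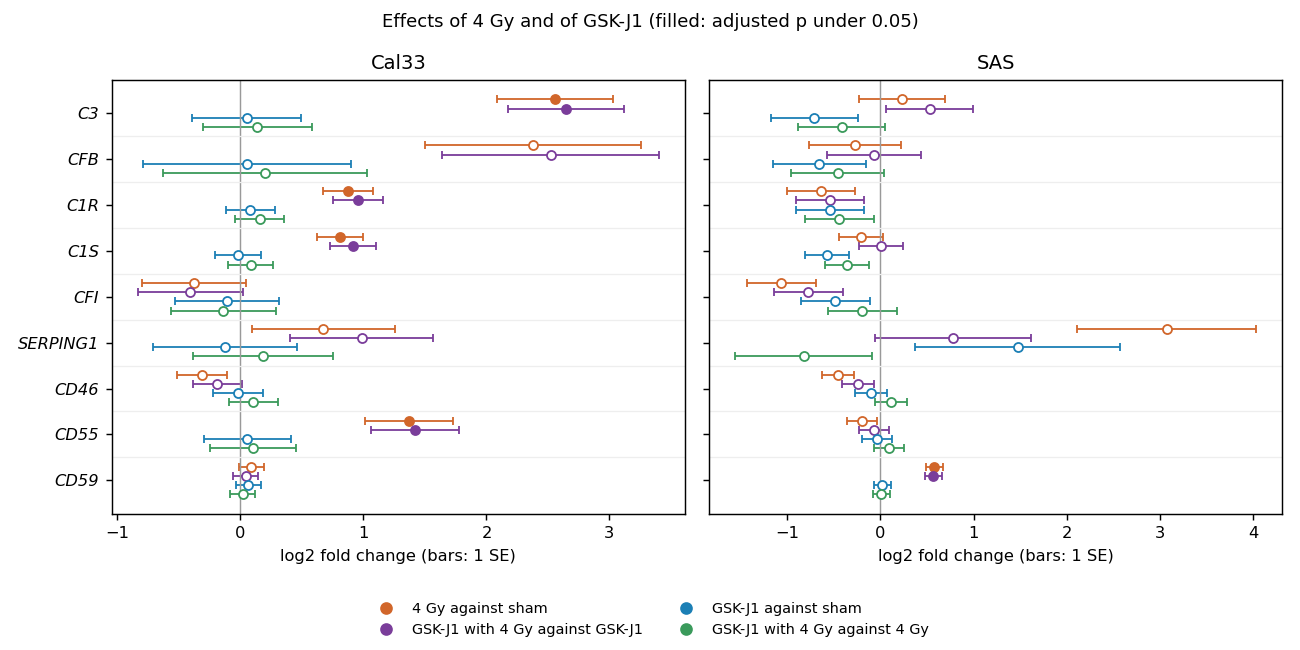
Log2 fold changes of the 9 genes with bars of 1 SE, for 4 Gy and GSK-J1, each alone and added to the other, in Cal33 (left) and SAS (right). Filled points have an adjusted p under 0.05 by edgeR. C3, C1R, C1S and CD55 are filled for both irradiation comparisons in Cal33, and CD59 for both in SAS.

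In SAS the gene that rose after 4 Gy was CD59. It was 1 of 9 members, against 7.08% of the 23416 genes tested in SAS (3.63% higher and 3.45% lower), so the members' count lies near the share of any gene. The median log2 fold change of the members was -0.21 beside -0.02 for all genes. CD59 stood at 174, 160 and 146 CPM in sham and at 262, 225 and 229 CPM after 4 Gy. Every irradiated library was above every sham library, by 1.49-fold on average (log2 0.58 ± 0.09, adjusted p = 0.00355). CD59 stayed called when any single library was left out and without both libraries that held Cal33 transcripts (adjusted p = 0.00808).

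When 4 Gy was added to GSK-J1 in SAS, CD59 again rose, from 170, 159 and 157 CPM to 254, 222 and 245 CPM. The groups did not overlap (log2 0.56 ± 0.09, adjusted p = 0.00576). It was 1 of 9 members against 4.42% of all genes (2.43% higher and 1.99% lower), again a count near the share of any gene. CD59 was the only member without overlap, against 26% of all genes. Without both libraries that held Cal33 transcripts the log2 fold change was 0.56 ± 0.12 and the adjusted p 0.0667, and 97 genes in place of 1036 were called.

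The components that rose in Cal33 were not called higher in SAS after 4 Gy. C3 was at 223, 171 and 55.7 CPM in SAS sham and at 167, 247 and 115 CPM after 4 Gy, with overlap and a 95% interval of the log2 difference from -0.84 to 1.3. C1R went from 17.5, 20.8 and 8.52 CPM to 10.7, 13.2 and 6.13 CPM, and C1S from 21.6, 22.4 and 13.9 CPM to 15.5, 22.2 and 12.6 CPM. Both overlapped, but each gene was lower in all 3 irradiated libraries than in the sham library of the same number. CFB was low throughout SAS, with 2.72, 1.37 and 0.725 CPM in sham and 1.404, 1.65 and 0.931 CPM after 4 Gy.

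CFI had 17.6, 15.4 and 7.05 CPM in SAS sham and 5.40, 8.44 and 5.39 CPM after 4 Gy (log2 -1.06 ± 0.37, adjusted p = 0.105). CD46 had 339, 285 and 250 CPM in sham and 226, 222 and 189 CPM after 4 Gy (log2 -0.46 ± 0.17, adjusted p = 0.13). Its groups did not overlap, whereas those of CFI did. CD55 had 90.1, 60.7 and 65.0 CPM in sham and 65.8, 57.9 and 64.5 CPM after 4 Gy, with a 95% interval from -0.57 to 0.17. SERPING1 was near absent, with 1 count in each sham library and 9, 10 and 6 counts after 4 Gy, a ratio of 9.33 with an exact counting interval of 2.85 to 48.3 (adjusted p = 0.0729). With GSK-J1 present the counts were 8, 0 and 1 without and 8, 6 and 4 with 4 Gy, a ratio of 1.76 (0.752 to 4.45). These intervals cover counting error only. Groups did not overlap for CD46, CD59 and SERPING1, 3 of 9 members, near the 26.7% of all genes.

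In SAS, libraries of the same number deviated together in every pair of groups, and the replicate block changed the calls. With it 5 members were called after 4 Gy, against 24.5% of all genes (11.3% higher and 13.2% lower). CD59 (log2 0.57 ± 0.06, adjusted p = 1.73e-05) and SERPING1 (adjusted p = 0.0188) rose. C1R (log2 -0.62 ± 0.10, adjusted p = 0.000639), CFI (log2 -0.99 ± 0.21, adjusted p = 0.0032) and CD46 (log2 -0.45 ± 0.08, adjusted p = 0.00121) fell. Leaving out both libraries with Cal33 transcripts from this fit, an alternative chosen after seeing the data, left 5 called members. For 4 Gy added to GSK-J1 the replicate block called 4 members against 21.5% of all genes (10.4% higher and 11% lower). CD59 and C3 rose, the latter by 0.63 ± 0.20 on the log2 scale (adjusted p = 0.0418), while C1R (log2 -0.50 ± 0.10, adjusted p = 0.00368) and CFI (log2 -0.70 ± 0.21, adjusted p = 0.0271) fell. Without the 2 libraries, 3 of them were called, and CFI was not.

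GSK-J1 gave no called member in SAS without the block. By edgeR 0 genes (0%) were called for GSK-J1 against sham, for GSK-J1 with 4 Gy against 4 Gy, and for the interaction, with 486, 438 and 399 genes at an unadjusted p under 0.05 and 3, 0 and 0 genes called by DESeq2, none of them a member. The smallest p belonged to C1S for GSK-J1 alone (log2 -0.57 ± 0.24, 95% interval -1.12 to -0.02) and added to 4 Gy (log2 -0.36 ± 0.24, -0.91 to 0.19), each at an adjusted p of 1. For the interaction it belonged to SERPING1 (log2 -2.30 ± 1.32, -5.35 to 0.76, adjusted p of 1), which had 8, 0 and 1 counts under GSK-J1.

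Set beside the library of the same number, the components stood lower with GSK-J1 in SAS. C3 was at 223, 171 and 55.7 CPM in sham and 118, 114 and 43.5 CPM under GSK-J1, and at 167, 247 and 115 CPM after 4 Gy and 128, 176 and 93.4 CPM with GSK-J1 added. C1R was at 10.5, 15.0 and 6.66 CPM under GSK-J1 and 8.10, 8.79 and 5.31 CPM under the combination, and C1S at 13.5, 15.4 and 10.2 CPM and 13.4, 15.6 and 10.2 CPM. Each of the 3 genes was lower in 3 of 3 pairs in both comparisons, as were CFB and CFI, while the groups as such overlapped for every member. CD46 and CD55 were also lower in 3 of 3 pairs under GSK-J1 alone, but higher in 3 of 3 when it was added to 4 Gy. SERPING1 was lower in 3 of 3 pairs in the latter comparison. The share of all genes lower in every pair was not computed. Groups did not overlap for 5.15% of all genes under GSK-J1 alone and for 9.82% under GSK-J1 added to 4 Gy.

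With the replicate block on the 6 libraries of sham and GSK-J1, 5 members were called and all were lower, against 2.59% of all genes (0.755% higher and 1.83% lower). They were C3 (log2 -0.62 ± 0.07, adjusted p = 7.95e-07), C1S (log2 -0.56 ± 0.07, adjusted p = 9.09e-06), C1R (log2 -0.52 ± 0.08, adjusted p = 0.000105), CFI (log2 -0.49 ± 0.08, adjusted p = 0.000173) and CFB (log2 -0.65 ± 0.16, adjusted p = 0.0178). With the replicate block over all 12 SAS libraries C1S alone was called (log2 -0.56 ± 0.08, adjusted p = 0.0321), against 0.0427% of all genes (0.0128% higher and 0.0299% lower), and no member once both libraries with Cal33 transcripts were left out. In the irradiated pair the 6-library block called C3 (log2 -0.40 ± 0.04, adjusted p = 1.47e-08), C1S (log2 -0.35 ± 0.06, adjusted p = 0.000128), C1R (log2 -0.42 ± 0.07, adjusted p = 0.00017) and CFB (log2 -0.48 ± 0.15, adjusted p = 0.0451), against 7.98% of all genes (4.47% higher and 3.51% lower), and the 12-library block called 0 members and 0% of all genes. The errors and p-values from 6 libraries rest on few residual degrees of freedom, and edgeR estimates a gene's spread partly from other genes.

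A block within each irradiation arm, added after the data were seen, called the same 5 members for GSK-J1 alone, against 3.26% of all genes (0.922% higher and 2.34% lower). For GSK-J1 added to 4 Gy it called C3, C1R and C1S, against 2.8% of all genes (1.42% higher and 1.38% lower). Without both libraries that held Cal33 transcripts, 2 pairs were left in each arm. This fit called C3, C1R, C1S and CFI for GSK-J1 alone, against 2.27% of all genes (0.512% higher and 1.75% lower), and again C3, C1R and C1S for GSK-J1 added to 4 Gy, against 1.23% (0.495% higher and 0.738% lower). All of them were lower with GSK-J1. CD46, CD55 and CD59 were called in none of these fits.

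**Figure D4:**
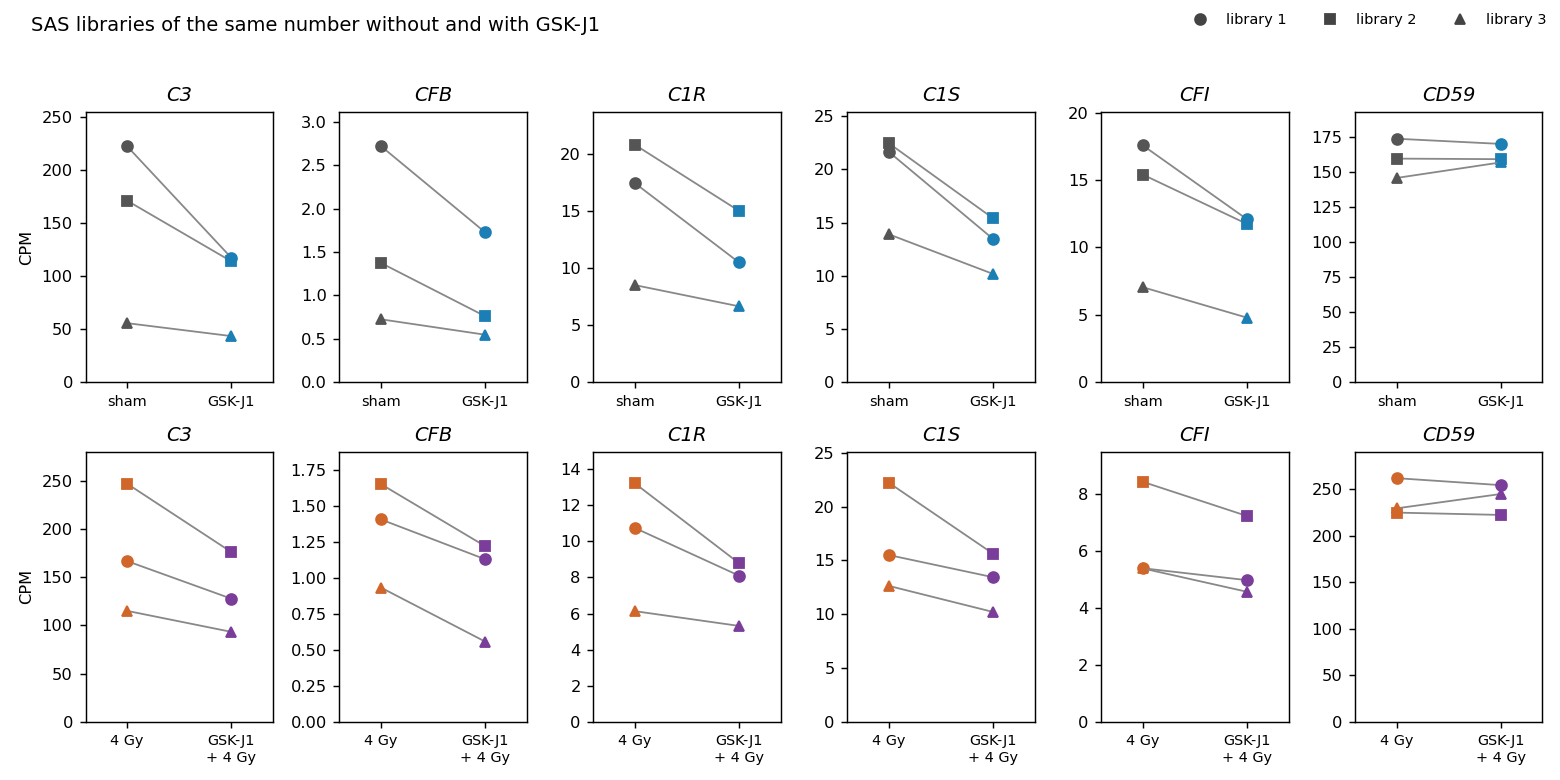
CPM of 6 genes in SAS without and with GSK-J1, in unirradiated (top) and irradiated (bottom) cells. Lines join libraries of the same number (circle, square and triangle for 1, 2 and 3). All lines of C3, CFB, C1R, C1S and CFI slope down, whereas CD59, drawn for comparison, moves either way.

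The lines' responses to 4 Gy were compared directly in 1 fit of all 24 libraries. No member was called, against 0.427% of all genes (0.285% with a higher effect in Cal33 and 0.142% with a lower one). By edgeR 2466 genes had an unadjusted p under 0.05, and DESeq2 called C1R, CD55 and CD59 among 439 genes. The log2 effect of 4 Gy in Cal33 minus that in SAS was -0.50 ± 0.13 for CD59 (adjusted p = 0.107, 95% interval -0.78 to -0.22), 1.55 ± 0.43 for CD55 (adjusted p = 0.121), 1.5 ± 0.45 for C1R (adjusted p = 0.176), 2.31 ± 0.72 for C3 (adjusted p = 0.198) and 1.00 ± 0.33 for C1S (adjusted p = 0.225). The 95% interval, unadjusted for the number of genes, lay on one side of 0 for each of these. It did so for CFB too (2.63 ± 1.11, adjusted p = 0.404, interval 0.28 to 4.99). The call depended on the fit: with the replicate block CD59, CD55, C1R, C3 and C1S were called (adjusted p between 0.0013 and 0.0338), against 2.57% of all genes (1.55% higher and 1.02% lower), although the numbers of the Cal33 sham libraries did not pair with those of the irradiated ones. CFB was not called with the block (adjusted p = 0.212).

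Within Cal33, C1R was the gene whose log2 CPM followed C3 most closely over the 12 libraries (Pearson r = 0.992 among 17999 genes), followed by PI3, an epithelial protease inhibitor (r = 0.991), and LCN2, an acute-phase protein that binds siderophores (r = 0.978). C1S had rank 5 by the same measure (r = 0.971), and CFB (r = 0.878) and CD55 (r = 0.867) came later. The libraries fall into irradiated and unirradiated ones. Within the 6 unirradiated libraries r of C3 was 0.98 with C1R, 0.81 with C1S, 0.985 with CFB and 0.666 with CD55. Within the 6 irradiated ones it was 0.975 with C1R, 0.904 with C1S, 0.694 with CFB and 0.324 with CD55, so the value of CD55 over all 12 libraries was not matched within either set. In SAS the closest genes were HRASLS2 (r = 0.979), RHPN2 (r = 0.963) and LIPG (r = 0.962), and C1R had r = 0.6 over all 12 libraries but 0.924 and 0.956 within the unirradiated and irradiated libraries, where CD55 had 0.433 and -0.779. These values describe libraries that share treatments and, in SAS, replicate numbers.

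**Figure D5:**
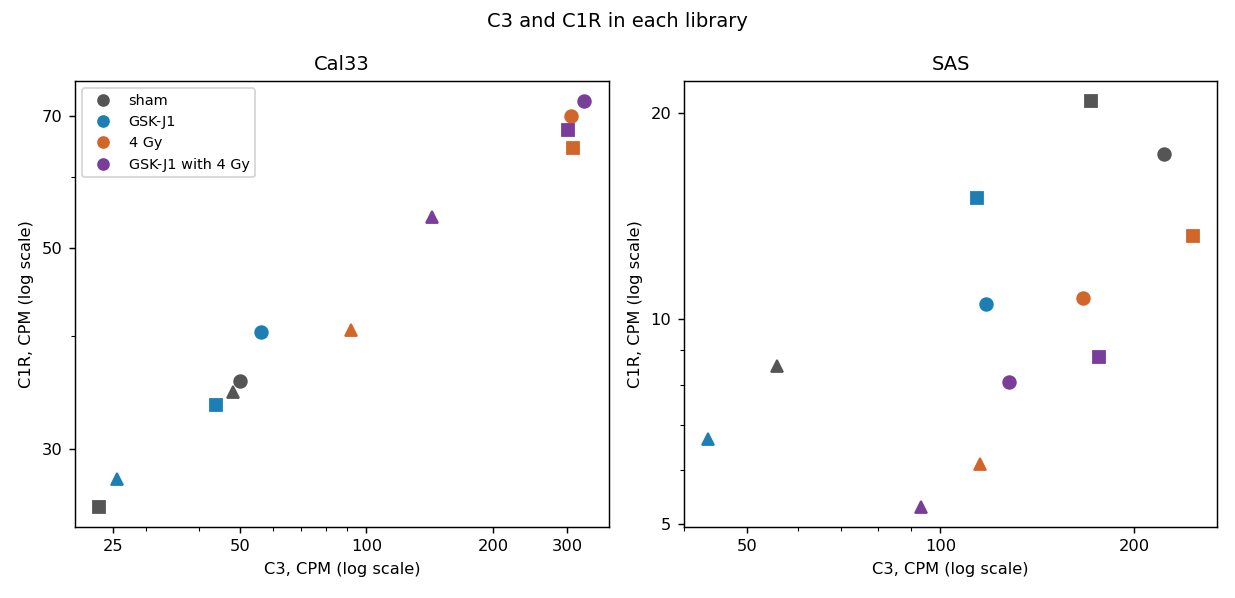
C1R against C3 in each library, both in CPM on log axes, in Cal33 (left) and SAS (right). Colours are the treatment groups and circle, square and triangle are numbers 1, 2 and 3. In Cal33 the libraries lie along 1 line from unirradiated to irradiated, and in SAS irradiated libraries show less C1R at similar C3, for example 6.13 CPM of C1R at 115 CPM of C3 in 1 irradiated library and 15.0 CPM at 114 CPM in 1 unirradiated library.

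Other complement genes were sparse. Of 50 further components, receptors and regulators, 26 were tested in Cal33 and 22 in SAS. C5, the precursor of the anaphylatoxin C5a and of the membrane attack complex, fell after 4 Gy in Cal33 from 4.76 ± 0.402 to 1.85 ± 0.425 CPM (SD, n = 3; log2 -1.35 ± 0.22 SE, adjusted p = 0.00596), and with GSK-J1 from 5.22 ± 0.582 to 2.20 ± 0.532 CPM (log2 -1.23 ± 0.22, adjusted p = 0.00913). It also fell in SAS after 4 Gy, from 1.22 ± 0.400 to 0.602 ± 0.103 CPM (log2 -1.03 ± 0.28, adjusted p = 0.0459). Thus C3 and C5 moved in opposite directions in irradiated Cal33 cells.

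In SAS, C1RL, a relative of C1R, fell after 4 Gy from 23.7 ± 3.08 to 14.4 ± 2.03 CPM (log2 -0.73 ± 0.13, adjusted p = 0.0072) and with GSK-J1 from 20.9 ± 2.08 to 13.6 ± 1.01 CPM (log2 -0.62 ± 0.13, adjusted p = 0.0205). MASP2, a protease of the lectin pathway, had 0 counts in the 3 sham libraries and 5, 6 and 6 after 4 Gy, at least 6.34-fold higher against a floor of 3 counts over the sham group (adjusted p = 0.0246). C4BPB, a chain of the C4b-binding protein, had 0, 3 and 2 counts in sham and 6, 28 and 26 after 4 Gy, a ratio of 13.4 with a counting interval of 5.45 to 42.9 (adjusted p = 0.0158), and it was also called with GSK-J1, at 1, 0 and 0 against 8, 12 and 11 counts (adjusted p = 0.0443). In all, 1 of 26 genes was called after 4 Gy in Cal33, 4 and 2 of 22 were called in the irradiation comparisons of SAS, and 0 in those of GSK-J1 in either line. The shares of all genes were 6.27% after 4 Gy in Cal33, 7.08% and 4.42% in the irradiation comparisons of SAS, and 0% in those of GSK-J1.

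Between the sham groups of the lines, 6 of 11 tested recognition molecules and early enzymes were higher in Cal33 and 2 lower, both terminal components tested were higher, 3 of 7 receptors were higher and 1 lower, and 3 of 8 regulators were higher and 2 lower. Of all genes, 54.5% differed between the lines, with 27.2% higher and 27.2% lower in Cal33. Among those higher in Cal33 were C1RL, CFD, C4B, C5, C8G, ITGAM, C5AR1, CD93 and SUSD4, as well as MASP1, MASP2, FCN3 and CPN1, which were at 0 counts in SAS sham. Lower were COLEC11 and C4A, as well as C3AR1, CFHR3 and VTN, which were at 0 in Cal33 sham. The genes at 0 in one line were also very low in the other. In Cal33 sham MASP1, MASP2, FCN3 and CPN1 had means of 0.0467, 0.081, 0.236 and 0.0748 CPM. In SAS sham C3AR1, CFHR3 and VTN had means of 0.0146, 0.0466 and 0.0216 CPM. CFD, the protease that activates CFB, was at 13.7 ± 6.10 CPM in Cal33 and 1.596 ± 0.297 CPM in SAS. C4A and C4B are near-identical, and reads may be split between them.

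Gene lists known to share regulators with complement moved as follows. Of 15 interferon-stimulated genes, 12 rose after 4 Gy in Cal33 and 11 with GSK-J1 present, with median log2 fold changes of 1.80 and 2.06, and 0 fell. In SAS 0 of the 15 were called in either comparison, with medians of -0.05 and -0.03. Of 16 NF-kB and acute-phase genes, 4 rose in Cal33 after 4 Gy, namely TNFAIP3, IL6, LCN2 and SAA1, with a median log2 fold change of 1.79 over the list, while in SAS 8 rose and 1 fell, with a median of 0.79. TNFAIP3 (log2 2.07 ± 0.22, adjusted p = 0.000308) and IL6 (log2 2.16 ± 0.25, adjusted p = 0.000539) were among those that rose in SAS. LCN2 and SAA1 were not called there. Of all genes tested, 3.47% rose and 2.81% fell after 4 Gy in Cal33, and 3.04% rose with GSK-J1 present. In SAS 3.63% rose and 3.45% fell after 4 Gy, and 2.43% rose with GSK-J1 present. The part of these pathways in the complement genes was not tested. Of the markers of other cell types, 1 of 10 tested was called in irradiated Cal33 cells, CSF1R, which rose from 1.46 to 4.13 CPM (log2 1.52 ± 0.25, adjusted p = 0.00668). The 13 markers together went the other way, from between 80.5 and 90.4 CPM in Cal33 sham to between 61.4 and 70.1 CPM after 4 Gy. CD163 was at 0 in all Cal33 sham libraries. In SAS 0 of 8 tested were called, and the sums spanned 27.2 to 126 CPM in sham and 36 to 56.2 CPM after 4 Gy. The part of these markers in the results was not tested.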

How the data were processed

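Gene counts were deposited by the authors as raw counts per gene and library, unnormalized, with and without regard to strand. According to the submitters' processing notes, reads were aligned with STAR 2.5.3a to hs37d5 and counted with featureCounts of Subread 1.5.1. How reads over overlapping genes were assigned is not given in the sources used here. The counts on the gene strand (94.43 to 95.18% of stranded counts) were used.

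Testing used R 4.3.3 and edgeR 4.0.16 with TMM scaling, the quasi-likelihood test between group means without covariates, and Benjamini-Hochberg adjustment over all genes whose mean count reached 1. A fit held the 12 libraries of a line, or all 24 where the lines were compared. SE is the log2 fold change divided by the square root of F, and 95% intervals use the residual degrees of freedom (8 within a line, 16 across lines). The edgeR test of 4 Gy against sham within a line, with and without the replicate block over 12 libraries, was tried on simulated counts. The other steps were not. CPM were scaled over the 24 libraries together, and correlations use log2(CPM + 0.5). The strongest p-values from blocked fits of 6 libraries rest on few residual degrees of freedom, and edgeR estimates a gene's spread partly from other genes.

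Replicate numbers were taken to pair groups where all 3 same-number correlations of deviations exceeded 0.1, over 18218 genes. They did in SAS (lowest 0.305) and among the treated Cal33 groups (lowest 0.162), but not with Cal33 sham (lowest -0.61). The deposited annotation gave exon lengths.

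Members and lists were chosen with earlier results of these data known. All members are named with a fold change where called, or else the member with the smallest p, as are called genes of the further complement list and the 3 genes most correlated with C3. Other genes were named after their values were seen. Alternatives were DESeq2 1.42.0 as size factors or test, other count filters, unstranded counts, the block, the 6 libraries compared, and leaving out libraries. Results of some genes are not reported here.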

Additional observations from a re-analysis of the deposited data

How the results depend on the processing

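Leaving out 1 library at a time gave 1 to 3 called members for 4 Gy against sham in Cal33, 1 to 4 for GSK-J1 with 4 Gy against GSK-J1, 1 to 2 and 1 to 1 for the same comparisons in SAS, 5 to 6 between the sham groups and 0 to 1 for the difference of the lines' responses (CD55, without Cal33 sham library 3). Among the values followed in these fits (each called member or, with none called, the member of smallest p), those that changed sign were C1R for GSK-J1 added to 4 Gy in Cal33 (-0.06 to 0.29), the interaction of CD46 in Cal33 (-0.01, with a range of -0.1 to 0.3) and that of SERPING1 in SAS (-2.85 to 0.05). Other uncalled values also changed sign in some blocked fits, such as CFB for GSK-J1 in Cal33 (0.05, and -0.25 with the block on 12 libraries). On the 6 libraries compared alone, 4 Gy against sham called 2 members in Cal33 (C3 and CD55) and 2 in SAS (CD59 and SERPING1). With the replicate block, SAS calls came to 5 after 4 Gy (12 or 6 libraries, and 5 without the libraries holding Cal33 transcripts), 4 after 4 Gy with GSK-J1 (12 or 6 libraries; 3 without those libraries), 1 (12 libraries) or 5 (6 libraries) for GSK-J1 alone and 4 (6 libraries) for GSK-J1 added to 4 Gy. Blocking within each irradiation arm gave 5 and 3 for the GSK-J1 comparisons, and 4 and 3 without those libraries. In Cal33 the block on 6 libraries gave 7 for 4 Gy with GSK-J1. Cal33 sham shares only a number with the other groups. There the block left 4 called members after 4 Gy but 2414 genes in place of 1528, and for the difference of the lines' responses it called 5 members (C3, C1R, C1S and CD55 larger and CD59 smaller in Cal33) among 631 genes in place of 105. That difference had 3 called members by DESeq2 and 3 without a count filter (C3, C1R and CD55). Without a filter, 2 members were called after 4 Gy in SAS (CD59 and CFI). Without the 2 SAS libraries holding Cal33 transcripts, unblocked fits called 2 members after 4 Gy (CD59 and SERPING1) and 0 after 4 Gy with GSK-J1. The block changed no call other than those given here and between the sham groups, where 8 members were called.

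Over all genes, DESeq2 called 2678 and 2845 after 4 Gy in Cal33 and SAS in place of 1528 and 1658, and the block 5734 in SAS. With GSK-J1 present, DESeq2 called 2470 in place of 1245 in Cal33 and 2242 in place of 1036 in SAS, and the block 2112 and 5029. On 6 libraries alone 783 and 897 were called after 4 Gy. The causes were not tested. Depth limits SERPING1 in SAS, with at most 10 counts in any library.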
